A study of Mus musculus with 6 samples.

Results

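The mouse Hox genes are 39 protein-coding homeobox genes that lie in 4 clusters. They were taken as all protein-coding genes with the symbol Hoxa, Hoxb, Hoxc or Hoxd followed by a number, and all 39 were among the 49315 genes counted in this series. Hoxa held 11 genes on chromosome 6, Hoxb 10 genes on chromosome 11 (96194316 to 96368256 of GRCm38), Hoxc 9 genes on chromosome 15 (102921103 to 103036852) and Hoxd 9 genes on chromosome 2 (74668310 to 74765142). In these cells the Hox signal came almost wholly from Hoxa and Hoxb. Hoxa7, Hoxa9 and Hoxa10 together gave 71.7% to 75.7% of the Hox counts in the WT libraries and 86.6% to 91.6% in the ING4-/- libraries, while 17 of the 18 Hoxc and Hoxd genes had at most 3 counts in every ING4-/- library.

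Hox proteins are transcription factors that bind DNA through a homeodomain, often beside cofactors of the TALE class such as the Pbx and Meis proteins. The genes are numbered by their place along the cluster, and genes of the same number in different clusters are paralogs. In the embryo they set position along the body axis, with Hoxc and Hoxd genes known above all from the trunk and limbs. In blood, Hoxa9 and Hoxa10 are known for their part in stem cell renewal and in leukemia, Hoxb4 for expanding stem cells when it is overexpressed, and Hoxb5 as a marker of long-term stem cells. Complexes with Kmt2a keep Hox genes active and Polycomb complexes keep them silent. ING4 reads methylated histone H3 and belongs to the HBO1 acetyltransferase complex.

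Bulk RNA-seq covered 3 sorted populations, LT-HSC, ST-HSC and MPP, of each of 2 genotypes, WT and ING4-/-. LT-HSCs and ST-HSCs are the long-term and short-term repopulating hematopoietic stem cells, MPPs are the multipotent progenitors below them, and all were sorted from lineage-depleted marrow (MPPs as Lin- Sca1+ cKit+ CD48- CD34+ CD150-). Marrow of 8 to 10 mice was pooled for each genotype, and each population of each genotype is 1 library. ING4-/- mice are homozygous for a loss of Ing4 and came from a colony of their own, and no further allele or treatment is labelled in either genotype. The WT controls of the study were C57BL/6 mice of 8 to 12 weeks, and the strain background and age of the ING4-/- mice used here are not given in the sources used here. Since 3 populations stood in for 3 replicates of a genotype, p-values measure the spread between these libraries only, and differences between the pools, colonies or preparations cannot be told apart from genotype. In bulk RNA, fewer cells of a type and less RNA per cell cannot be told apart either. Values of a genotype are given in the order LT-HSC, ST-HSC, MPP throughout.

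Ing4, the targeted gene, was counted 247, 162 and 247 times in WT and 0, 24 and 76 times in ING4-/- (log2 fold change -4.49, standard error (SE) 1.56, adjusted p = 0.0373 by edgeR's quasi-likelihood test). Ing4 stayed lower in every setting in which it could be tested (log2 fold change -6.00 to -3.75). Its adjusted p was 0.0783 with population as a replicate block, 0.0544 with upper-quartile normalization, 0.0863 after subtraction of a background measured on receptor genes of other tissues, 0.138 and 0.0599 without the ST-HSC or the MPP population, and 0.066 to 0.083 without any 1 WT library or without ING4-/- ST-HSCs. After subtraction of a background measured on homeobox genes of other tissues, the adjusted p of Ing4 was 0.04 by edgeR. Total counts were 7839326 to 9363442 in WT and 35596876 to 39192588 in ING4-/-. All 5 sort markers had counts in every WT library, and in ING4-/- only Cd48 was at 0, in LT-HSCs. By the paper's gates all populations were CD48-, LT-HSCs also CD34- and MPPs also CD150- (Slamf1). Cd48 nonetheless had 50, 154 and 376 counts in WT, and 1077 and 4300 in ING4-/- ST-HSCs and MPPs. Cd34 had 1036 and 9500 counts in WT and ING4-/- LT-HSCs, and Slamf1 had 336 and 299 in WT and ING4-/- MPPs. The gates are on surface protein, and RNA counts cannot test them.

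Background differed strongly between the genotypes and bears on every low Hox value. It was taken from 1431 receptor genes of olfactory and vomeronasal neurons, and their density was 22.4, 22.7 and 18.1 counts per kb of exonic sequence in WT. In the ING4-/- libraries it was 0.0851, 0.0693 and 0.0386. Spread over all exons, the WT background equals 33.4%, 33.0% and 22.6% of the counts, against at most 0.0280% in ING4-/-. A second measure, 46 homeobox genes of other tissues, was closer to the Hox genes in base composition (median GC 55.8%, Hox genes 53.5%, receptor genes 39%). These 46 genes had 7.28, 7.69 and 6.63 counts per kb in WT and 0.0916, 0.0262 and 1.29 in ING4-/-. A Hox gene was written as above background in a library when it had more than 3 counts and more counts per kb than the 99th percentile of the receptor genes, which was 125, 105 and 79.8 counts per kb in WT and 0.415, 0.287 and 0.328 in ING4-/-. The bar was thus far lower in ING4-/-, and the genotypes cannot be ranked by how many genes passed it.

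**Figure D1:**
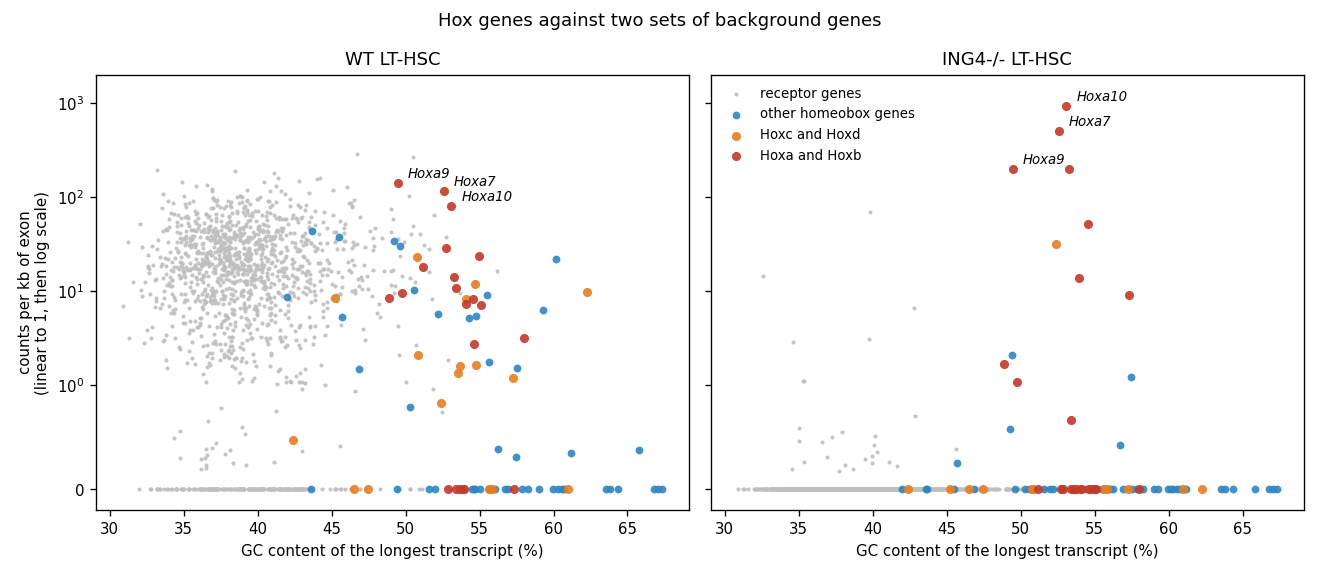
Counts per kb of exon (linear to 1, then log scale) against GC content of the longest transcript, 1 point per gene, in the WT and ING4-/- LT-HSC libraries. In WT the receptor genes, pooled at 22.4 counts per kb, reach the level of most Hox genes and only Hoxa7, Hoxa9 and Hoxa10 stand at the upper edge, while in ING4-/- nearly all receptor genes are at 0 and Hoxa7, Hoxa9 and Hoxa10 lie far above them.

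The promoters of the members that carry most of the signal are shown beside those of Hoxb4 and of Hoxd9, the Hoxd paralog of Hoxa9, which were not above background in any library. Each window is the 300 bases from 250 before to 50 after a RefSeq start on GRCm38.p6, written 5′ to 3′ on the gene's strand, with every CG in capitals. The windows are chr6:52218524-52218823 (minus) for Hoxa7, chr6:52227321-52227620 (minus) for Hoxa9, chr6:52234890-52235189 and chr6:52240805-52241104 (minus) for Hoxa10, chr11:96318017-96318316 (plus) for Hoxb4 and chr2:74697513-74697812 (plus) for Hoxd9.
Hoxa7: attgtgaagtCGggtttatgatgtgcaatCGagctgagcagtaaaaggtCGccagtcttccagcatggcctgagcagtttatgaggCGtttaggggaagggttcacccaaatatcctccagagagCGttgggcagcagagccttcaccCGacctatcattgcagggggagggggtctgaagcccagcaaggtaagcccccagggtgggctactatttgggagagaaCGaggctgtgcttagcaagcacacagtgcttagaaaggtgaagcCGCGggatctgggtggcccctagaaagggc
Hoxa9: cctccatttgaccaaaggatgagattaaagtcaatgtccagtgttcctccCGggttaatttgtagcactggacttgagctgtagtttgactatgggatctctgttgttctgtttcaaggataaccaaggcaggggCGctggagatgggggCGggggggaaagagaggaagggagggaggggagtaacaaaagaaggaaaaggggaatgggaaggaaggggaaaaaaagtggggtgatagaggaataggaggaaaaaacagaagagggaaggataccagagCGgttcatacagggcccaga
Hoxa10, first window: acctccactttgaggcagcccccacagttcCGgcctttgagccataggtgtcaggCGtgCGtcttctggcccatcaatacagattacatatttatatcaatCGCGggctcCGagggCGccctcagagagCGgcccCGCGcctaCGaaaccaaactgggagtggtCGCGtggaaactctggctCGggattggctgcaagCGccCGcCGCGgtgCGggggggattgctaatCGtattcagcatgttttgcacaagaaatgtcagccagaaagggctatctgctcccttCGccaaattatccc
Hoxa10, second window: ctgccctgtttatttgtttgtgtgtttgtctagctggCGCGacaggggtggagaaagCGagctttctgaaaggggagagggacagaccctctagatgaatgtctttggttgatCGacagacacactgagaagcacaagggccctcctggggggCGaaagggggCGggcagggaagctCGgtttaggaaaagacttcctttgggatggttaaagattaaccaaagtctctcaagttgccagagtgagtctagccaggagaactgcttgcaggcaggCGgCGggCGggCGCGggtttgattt
Hoxb4: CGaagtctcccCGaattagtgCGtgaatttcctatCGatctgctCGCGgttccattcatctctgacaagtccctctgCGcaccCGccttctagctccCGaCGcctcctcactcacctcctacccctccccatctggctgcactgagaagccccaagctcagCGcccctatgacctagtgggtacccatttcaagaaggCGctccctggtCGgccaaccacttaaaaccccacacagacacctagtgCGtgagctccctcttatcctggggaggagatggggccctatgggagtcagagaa
Hoxd9: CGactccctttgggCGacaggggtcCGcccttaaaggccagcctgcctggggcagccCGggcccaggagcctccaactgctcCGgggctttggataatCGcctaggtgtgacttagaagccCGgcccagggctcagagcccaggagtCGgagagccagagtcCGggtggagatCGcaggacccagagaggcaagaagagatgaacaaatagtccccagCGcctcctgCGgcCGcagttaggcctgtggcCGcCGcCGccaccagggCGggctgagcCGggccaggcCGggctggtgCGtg

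RefSeq windows were found for 22 of the 39 members, 24 windows in all. They held a median of 14.5 CG, against 7 over 32851 promoters of the table. Members above background in at least 1 library (8 windows) had 4 to 29 CG with a median of 16.5, and the others (16 windows) had 4 to 45 with a median of 14.5, so the ranges overlapped widely. Hoxa9, the member of most counts in WT, had 4 CG in its window and Hoxd9 had 20. Of the motifs searched on both strands, TATAAA was in 4 of the 24 windows (13.6% of all promoters), CCAAT in 15 (37.4%), the Hox-Pbx type motif TGATTNAT in 2 (3.22%) and the Meis type motif TGACAG in 2 (19.2%). Of the windows printed, the first of Hoxa10 held TATAAA and CCAAT, and the others held none of the 4 motifs.

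Summed over the genes of a cluster, the level was highest for Hoxa in all 6 libraries. Levels are CPM, counts scaled to library size with TMM factors, per kb of exon. Hoxa summed to 38.5, 34.9 and 39.8 in WT and to 52.9, 35.2 and 52.4 in the ING4-/- libraries. Hoxb summed to 11.4, 6.4 and 4.75 in WT and 8.49, 6.14 and 1.8 in ING4-/-. The sum was lowest in MPPs in both genotypes, but no Hoxb gene was above background in any WT library. The WT Hoxb sums were 5.84, 2.24 and 0.973 with the homeobox density subtracted and 0.73, 0 and 0 with the receptor density subtracted. Hoxc reached 5.63, 3.44 and 5.47 in WT and 1.01, 0.013 and 0 in ING4-/-, and Hoxd 1.72, 2.39 and 1.84 in WT and 0, 0.015 and 0 in ING4-/-. Hoxa and Hoxb together made up 87.2%, 87.6% and 85.9% of the Hox level in WT and 98.4%, 99.9% and 100% in ING4-/-. With the density of the 46 homeobox genes subtracted, the WT shares became 93.8%, 98.6% and 96.2%, and with that of the receptor genes 99.8%, 100% and 100%.

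**Figure D2:**
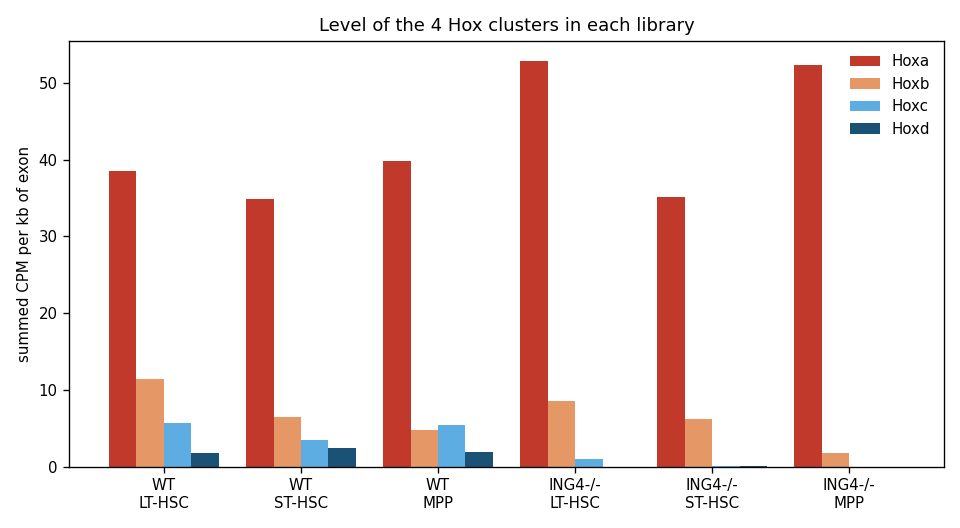
Summed level of each Hox cluster (TMM-normalized CPM per kb of exon, no background subtracted) in the 6 libraries, 1 bar per cluster and library. Hoxa bars stand between 34.9 and 52.9, and the Hoxc and Hoxd bars of at most 5.63 in WT shrink to at most 1.01 in ING4-/-.

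Above background in all 3 WT libraries was 1 of the 21 Hoxa and Hoxb genes, Hoxa9, and Hoxa7 passed in MPPs only. In all 3 ING4-/- libraries 6 of the 21 were above background, Hoxa3, Hoxa7, Hoxa9, Hoxa10, Hoxb2 and Hoxb5, and 11 were in at least 1. Of the 18 Hoxc and Hoxd genes, 0 passed in any WT library, and Hoxc6 alone passed in ING4-/-, in LT-HSCs. With the 95th percentile of the receptor genes, or with the 46 homeobox genes as background, Hoxa7, Hoxa9 and Hoxa10 were above background in all 3 WT libraries. The same 3 genes had more counts in every WT library than the pooled receptor density gives for their length, and 32 of the 39 members had no more than that in all 3. Against the lower homeobox density 7 members had more in every WT library, the same 3 with Hoxa5, Hoxb5, Hoxc8 and Hoxc13. The remaining 27 members, not above background in any library, had at most 3 counts in every ING4-/- library, and 22 of them were at 0 in all 3 (3 in Hoxa, 4 in Hoxb, 7 in Hoxc and 8 in Hoxd). A count of 0 there allows up to 3 counts. Scaled to total counts without TMM factors, these are a CPM of 0.0765 to 0.0843, which cannot be set directly beside the TMM-normalized levels.

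**Figure D3:**
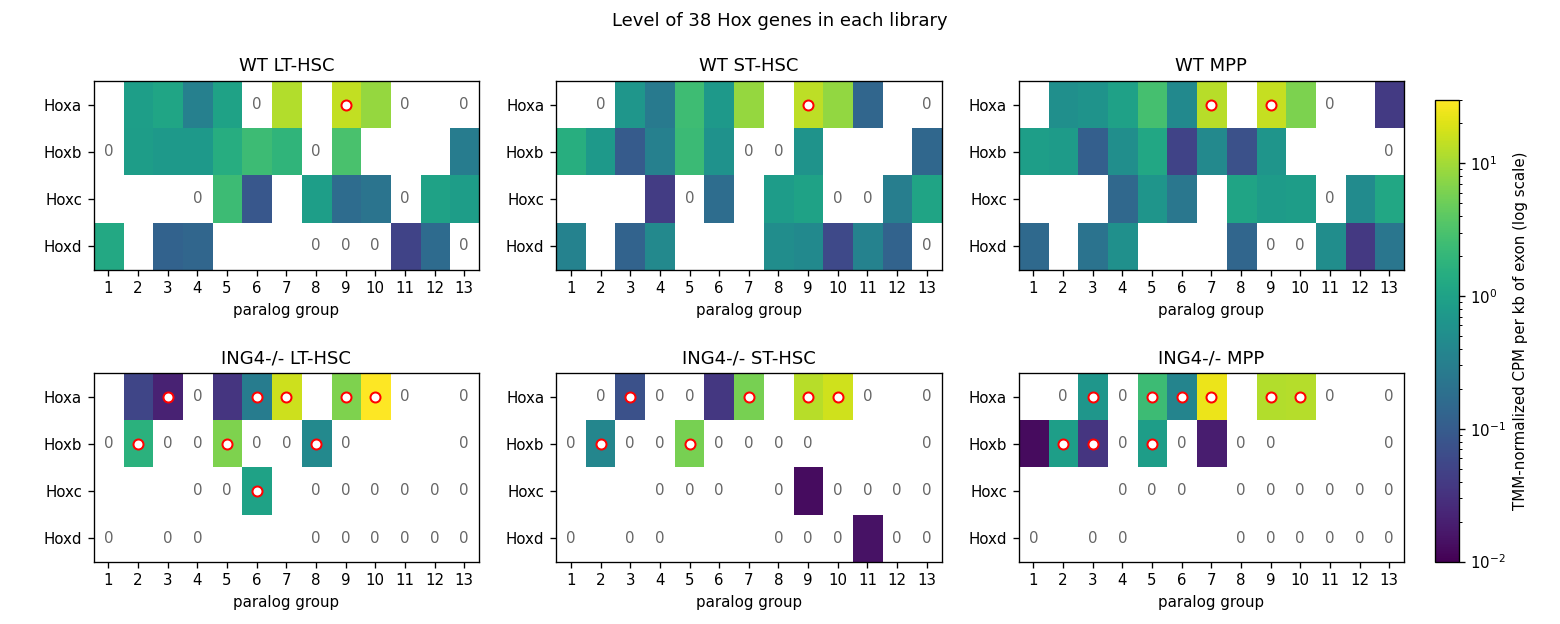
Level of 38 of the 39 Hox genes (colour, TMM-normalized CPM per kb of exon on a log scale) by cluster and paralog group in the 6 libraries. A ringed dot marks a gene above background in that library, a 0 marks a gene without counts, and blank cells hold no gene or one not shown; in WT 1, 1 and 2 genes are marked, and in ING4-/- 9, 6 and 9, nearly all in Hoxa and Hoxb.

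Hoxa9, a transcription factor of stem and progenitor cells, had the highest level of all Hox genes in every WT library. It had 779, 701 and 850 counts in WT and 1107, 2203 and 2251 in ING4-/-. Its level was 14.6, 13.4 and 14.8 CPM per kb in WT and 6.34, 12.5 and 11.9 in ING4-/-. The ING4-/- values all lay below the WT values, by little in ST-HSCs and MPPs and by more in LT-HSCs (log2 ratios -1.20, -0.10 and -0.31), and the change was not called (log2 fold change -0.49, SE 0.32, adjusted p = 0.221 by edgeR). It was called lower once the receptor background was subtracted (-1.08, adjusted p = 0.0264), and its sign turned under upper-quartile normalization (0.10).

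Hoxa10, the neighbor of Hoxa9 in the cluster and a regulator of the same cells, was the 1 Hox gene called higher in ING4-/-. Its counts were 265, 249 and 209 in WT (95% Poisson intervals 234 to 299, 219 to 282 and 182 to 239) and 3078, 1742 and 1375 in ING4-/-. Its level was 7.59 ± 1.22 CPM per kb in WT and 19.8 ± 9.19 in ING4-/- (SD, n = 3 populations). Every ING4-/- library (30.1, 16.8 and 12.4) was above every WT library (8.48, 8.1 and 6.2), and the highest was LT-HSC. Its log2 fold change over WT was 1.37 (SE 0.413, adjusted p = 0.0212 by edgeR), and the ratios within the populations were 1.82, 1.05 and 1.00. Over the 9673 genes that reached 10 counts in all 6 libraries, the median log2 fold change was 0.52, so the shift of Hoxa10 beyond those genes was smaller than 1.37. The gene stayed higher in every setting tried, but the call was lost with DESeq2 size factors (1.01, adjusted p = 0.0857), with the count minimum of 10 (0.86, adjusted p = 0.205), after subtraction of the receptor background (1.03, adjusted p = 0.122) and without any 1 of the WT libraries (adjusted p 0.0643 without LT-HSC, 0.0796 without ST-HSC and 0.115 without MPP). Without ING4-/- LT-HSCs the log2 fold change was 0.96. The call was kept after subtraction of the homeobox density (1.25, adjusted p = 0.0419 by edgeR).

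Hoxa7 was the second of the Hox genes in each WT library. It had 331, 232 and 381 counts in WT and 1448, 523 and 2343 in ING4-/-, or 12.0, 8.58 and 12.8 against 16.1, 5.75 and 24.0 CPM per kb. In both genotypes ST-HSCs had the lowest value, and the genotypes overlapped. The difference was not called (log2 fold change 0.44, SE 0.542, adjusted p = 0.513 by edgeR), and its sign turned in 4 of the settings tried. Of its exonic bases, 20.4% lie opposite the noncoding gene Hoxaas3, and the strand setting of the counting is not given in the sources used here, so reads of the 2 genes cannot be told apart.

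The order of these 3 genes differed between the genotypes. In WT it was Hoxa9, Hoxa7, Hoxa10 in all 3 populations, although Hoxa7 and Hoxa10 were within counting error of each other in ST-HSCs (95% intervals 7.51 to 9.75 and 7.12 to 9.17 CPM per kb). In ING4-/- Hoxa10 led in LT-HSCs and ST-HSCs and Hoxa7 in MPPs, where Hoxa10 and Hoxa9 were within counting error. The ratio of Hoxa10 to Hoxa9 per kb does not depend on how the libraries are scaled, and it was chosen after its values were seen. It was 0.58, 0.606 and 0.42 in WT and 4.74, 1.35 and 1.04 in ING4-/-. All ING4-/- ratios were above all WT ratios, with a mean difference of 1.83 on the log2 scale and a two-sided exact permutation p of 0.1, the smallest that 3 against 3 libraries allow. The difference was 1.90 after subtraction of the homeobox density and 2.08 after that of the receptor density, and 1.17 without ING4-/- LT-HSCs. The ratios of Hoxa7 to Hoxa9 (exact permutation p = 0.4) and of Hoxa10 to Hoxa7 (exact permutation p = 0.3) overlapped between the genotypes. Within the populations Hoxa10 to Hoxa7 was nonetheless higher in ING4-/- in all 3, at 1.87, 2.93 and 0.516 against 0.704, 0.944 and 0.482, and Hoxa10 to Hoxa9 was too. Permuted within populations, both gave an exact p of 0.25, the smallest that 3 pairs allow, and Hoxa7 to Hoxa9 gave 0.5. In MPPs the difference in Hoxa10 to Hoxa7 was within counting error, WT having 209 and 381 counts (95% Poisson intervals 182 to 239 and 344 to 421). With 3 ratios computed, no adjusted p can fall below 0.1.

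**Figure D4:**
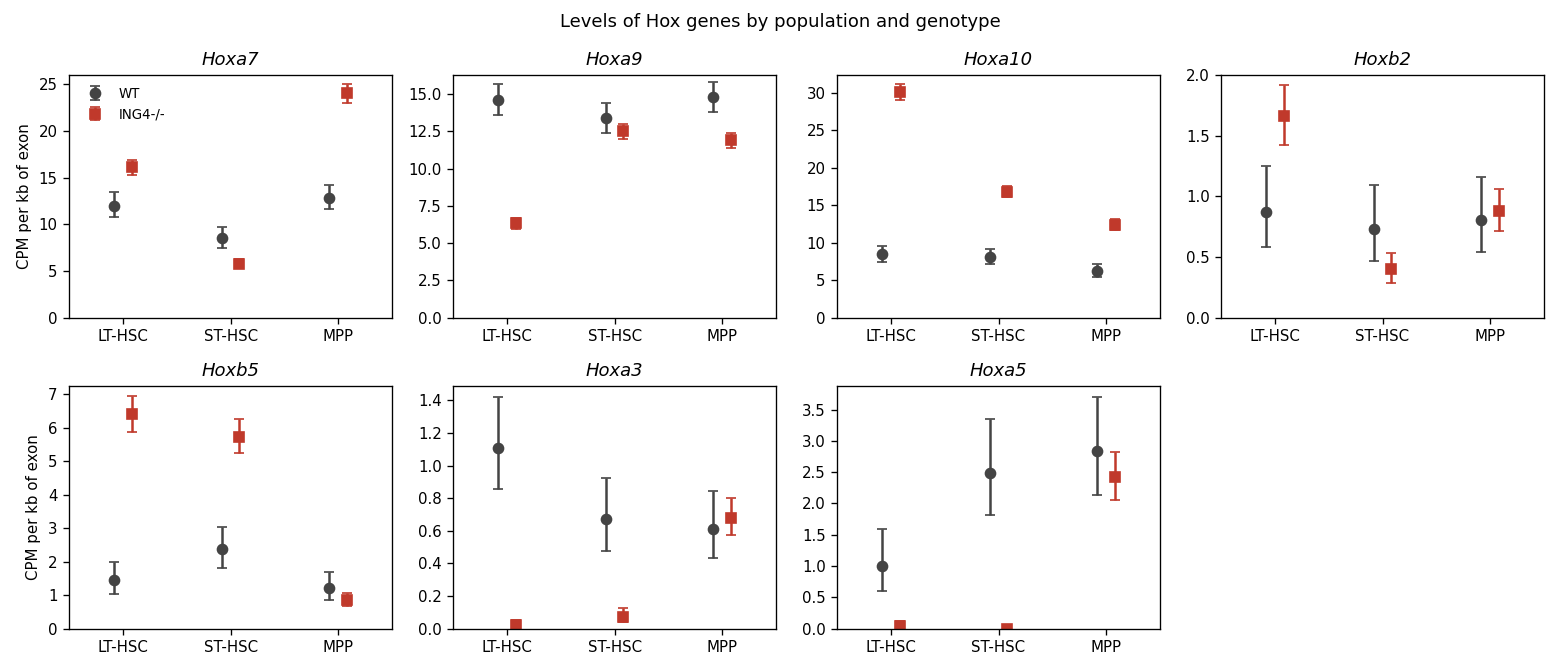
Level (CPM per kb of exon) of 7 Hoxa and Hoxb genes in LT-HSCs, ST-HSCs and MPPs of WT (circles) and ING4-/- (squares), 1 library per point, with 95% Poisson intervals that cover counting error only. Hoxa10 lies higher in ING4-/- in all 3 populations (30.1, 16.8 and 12.4 against 8.48, 8.1 and 6.2), Hoxa9 lower, and Hoxa7, Hoxb2, Hoxb5, Hoxa3 and Hoxa5 cross or touch.

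Hoxb5, known as a marker of long-term stem cells, was the leading Hoxb gene of ING4-/- LT-HSCs and ST-HSCs. It had 558, 506 and 81 counts in ING4-/- and 39, 62 and 35 in WT, all 3 WT values being under the 62.4, 63.2 and 50.4 counts that the receptor density gives for its length. The level in ING4-/- was 6.4, 5.74 and 0.857 CPM per kb, so LT-HSCs and ST-HSCs were close to each other and MPPs were low. Its log2 ratios to WT were 2.10, 1.27 and -0.49, and the change was not called (log2 fold change 1.35, SE 0.832, adjusted p = 0.197 by edgeR). It was called higher without ING4-/- MPPs (1.86, adjusted p = 0.0233) and after receptor subtraction (adjusted p = 0.00644), where the subtraction leaves no WT counts. Hoxb2, of the anterior part of the cluster, had 29, 24 and 29 counts in WT and 181, 44 and 104 in ING4-/-. Its ING4-/- values fell on either side of WT (log2 fold change 0.27, SE 0.619, adjusted p = 0.729), and its sign turned with DESeq2 size factors (-0.07). It was called higher after receptor subtraction (9.03, adjusted p = 0.00565), where no WT counts were left, and was 3.03 after homeobox subtraction (adjusted p = 0.0548). Of its exonic bases, 27.3% lie opposite Hoxb3os.

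Hoxa3 and Hoxa5, of the anterior and middle part of the cluster, were found in ING4-/- MPPs and scarcely in ING4-/- LT-HSCs and ST-HSCs. Hoxa5 had 2, 0 and 154 counts in ING4-/- and 18, 44 and 55 in WT. Hoxa3 had 4, 14 and 139 counts in ING4-/- and 64, 38 and 38 in WT. Among the ING4-/- libraries MPP is thus the high one for both, which rests on 1 library and has no replicate check. Neither was called between the genotypes (log2 fold changes of Hoxa5 and Hoxa3 -1.38 and -1.64, adjusted p 0.527 and 0.263 by edgeR). Without ING4-/- MPPs both were called lower (-6.68 and -4.03, adjusted p 0.00412 and 0.00572), as they were without the MPP population (-6.61 and -4.40). Hoxa6 was low throughout, with 0, 6 and 4 counts in WT and 8, 1 and 11 in ING4-/-.

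Of the genes with more than 3 counts in ING4-/- LT-HSCs, 2 were at 0 in the other ING4-/- libraries. Hoxc6 had 76, 0 and 0 counts in ING4-/- and 2, 4 and 6 in WT, and Hoxb8, known for blocking myeloid differentiation when overexpressed, had 36, 0 and 0 in ING4-/- and 0, 0 and 2 in WT. Hoxc6 was the 1 Hoxc gene above background in any library. It was not called (log2 fold change 0.96, adjusted p = 0.678 by edgeR), and its fold change was -3.21 with population as a replicate block.

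Of the genes not above background in any library, the highest mean WT level of each cluster was that of Hoxa4, Hoxb9, Hoxc13 and Hoxd1 (0.523, 1.41, 1.05 and 0.578 CPM per kb), with Hoxa2 and Hoxc5 close behind (0.477 and 1.02). Hoxa4 had 5, 4 and 16 counts in WT, Hoxb9 had 73, 15 and 17, Hoxc13 had 20, 25 and 31, and Hoxd1 had 22, 6 and 3. All 4 were at 0 in the ING4-/- libraries. Hoxb4, often studied in stem cells, had 18, 8 and 14 counts in WT and 0 in each ING4-/- library. These WT counts were under the 57.5, 58.2 and 46.4 that the receptor density gives for its length, and at or under the 18.7, 19.7 and 17.0 of the homeobox density, so that its expression was not detectable above background in either genotype at this depth.

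Comparing ING4-/- with WT asks how Hox expression differs without ING4. Enough counts for the test were found for 18 of the 39 genes, 12 in Hoxa and Hoxb and 6 in Hoxc and Hoxd, and a gene was called at an adjusted p under 0.05 and a log2 fold change over 1 in size (edgeR, Benjamini-Hochberg over 31001 genes). Hoxa10 was called higher, 1 of 18, where 7.98% of all genes tested were called higher. Called lower were 9 of 18, where 56.7% of all genes were, namely Hoxa4, Hoxb3, Hoxb4, Hoxb9, Hoxc8, Hoxc9, Hoxc13, Hoxd3 and Hoxd4. These are shares near or below the background of the comparison, in which the median log2 fold change was -6.85 over all genes and -3.14 over the Hox genes tested. With genes at 0 in all ING4-/- libraries set to their bound of 3 counts per library, the medians were -3.90 and -2.21.

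The genes called lower were low in WT as well. Their WT counts ran from 4 to 73, none was above background in WT, and 8 of the 9 had no more counts in any WT library than the receptor density gives for their length, the exception being Hoxb9 in LT-HSCs. Against the homeobox density 3 of the 9 had no more in any WT library, and Hoxc8 (24, 22 and 31 counts) and Hoxc13 (20, 25 and 31) had more in all 3. At most 3 counts were found in every ING4-/- library for 8 of the 9, and Hoxb3 had 31, 4 and 5 counts in WT and 0, 0 and 5 in ING4-/-. Called lower without any 1 library were 6 of the 9, and Hoxa4, Hoxb3 and Hoxd3 had too few counts to be tested in at least 1 such fit. If every WT count is taken as expression, 3 counts per ING4-/- library put Hoxb9 at least 39-fold lower (17.4-fold without WT LT-HSCs). Hoxc8 was then at least 28.2-fold and Hoxc13 at least 27.8-fold lower. For Hoxb4 the same calculation gives 14.7-fold, which is no bound, since its WT counts were under both background densities. Where WT counts are background, no minimum change holds. After subtraction of the homeobox or the receptor density only 6 and 5 Hox genes had enough counts left to be tested by edgeR, and none of the 9 was among them, so their calls could not be tested against background. Hoxb3 was not called with population as a replicate block (-5.05, adjusted p = 0.0947), and 52.9% of its exonic bases lie opposite Hoxb3os. Hoxd3 and Hoxd4 share 62.3% and 52.3% of their exonic bases with other genes on the same strand, each other included, so their counts are uncertain. Of the 18 Hox genes tested, 11 had WT and ING4-/- levels that did not overlap, Hoxa10 higher in ING4-/- and 10 lower (5.56% and 55.6%). Of all genes tested 12.1% and 62.8% did not overlap in these directions, where 7.98% and 56.7% were called.

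**Figure D5:**
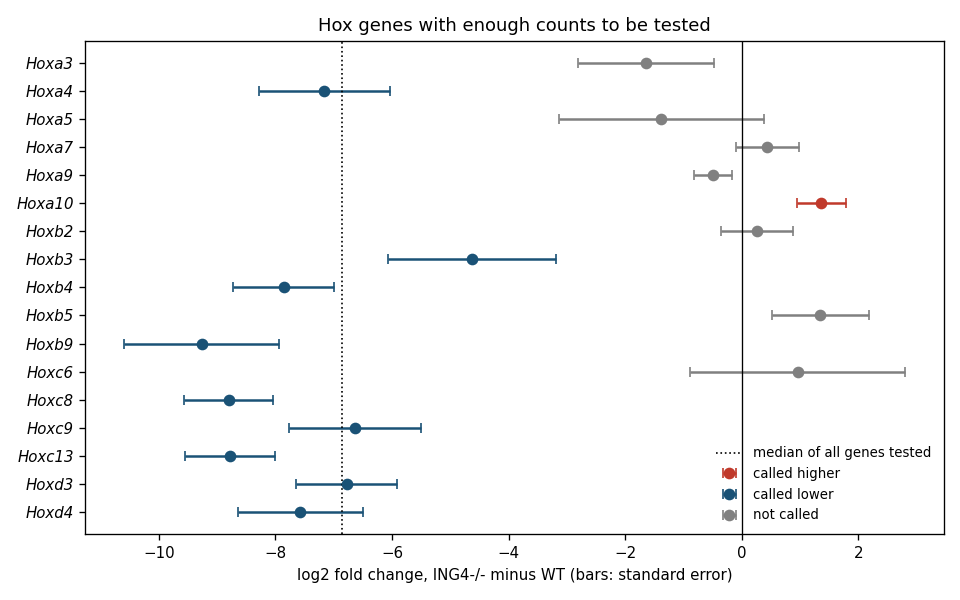
Log2 fold change of ING4-/- over WT for 17 of the 18 Hox genes with enough counts to be tested (edgeR, points; bars are standard errors), with the median of all genes tested as a dotted line at -6.85. Hoxa10 is the 1 gene called higher (1.37), the 9 called lower lie between -9.26 and -4.63, and the 7 not called that are shown lie between -1.64 and 1.35.

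No Hox gene was called between the populations. With both genotypes in the fit and genotype as a term, 27 Hox genes were tested for LT-HSC against MPP, LT-HSC against ST-HSC and ST-HSC against MPP. In each comparison 0 of the 27 were called by edgeR, 0 had an unadjusted p under 0.05, and 0 (0%) of all 36170 genes were called, with 564, 624 and 183 genes at an unadjusted p under 0.05. The fit has 2 libraries per population, and DESeq2 was not run for it. Among the 6 members above background in all ING4-/- libraries the lowest unadjusted p was that of Hoxa7, lower in ST-HSCs than in MPPs (log2 fold change -1.31, SE 0.608, unadjusted p = 0.0796, adjusted p = 1 by edgeR). For Hoxb5 the LT-HSC to MPP log2 fold change was 1.51 with a SE of 1.59, and for Hoxa10 it was 0.88 with a SE of 0.493.

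Of the 9 TALE cofactors that bind DNA with Hox proteins, 6 were above background in all 3 ING4-/- libraries and 1 in all 3 WT libraries. Of the 9, 0 were called higher and 1 lower (at most 1 count in each ING4-/- library), against 7.98% and 56.7% of all genes tested. Meis1, a partner of Hoxa9, had 3248, 3038 and 3682 counts in WT and 15642, 14521 and 19018 in ING4-/-. Its level of 48.1 ± 4.85 CPM per kb in ING4-/- was above 32.3 ± 1.62 in WT in all 3 populations (SD, n = 3), but the log2 fold change of 0.56 (adjusted p = 0.0123 by edgeR) was under the size asked for, near the 0.52 median of well-counted genes, and was -0.15 after receptor subtraction. With upper-quartile normalization Meis1 passed both thresholds (1.15, adjusted p = 0.000729 by edgeR), where 14.7% of all genes were called higher.

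Among regulators of Hox genes, 3 of 14 activators tested were called lower and 0 higher, where 56.7% and 7.98% of all genes were. Kmt2a, a histone methyltransferase that keeps Hox genes active, had 452, 523 and 702 counts in WT and 384, 489 and 682 in ING4-/-, or 3.42 ± 0.628 against 0.956 ± 0.236 CPM per kb (SD, n = 3). It was called lower (log2 fold change -1.85, SE 0.366, adjusted p = 0.00284 by edgeR), but its WT counts were not above background and the call was lost after receptor subtraction (-1.18, adjusted p = 0.221). After homeobox subtraction Kmt2a was still called lower (-1.80, adjusted p = 0.00618 by edgeR). The other 2 activators called had at most 5 counts in each ING4-/- library. Of 16 Polycomb genes tested, 1 was called higher and 2 lower, against the same 7.98% and 56.7% of all genes. Eed, a core subunit of the complex that methylates histone H3, had 287, 221 and 325 counts in WT and 3133, 1551 and 2461 in ING4-/- (log2 fold change 1.37, SE 0.356, adjusted p = 0.011), and was not called after receptor subtraction (1.08, adjusted p = 0.0729), with the count minimum of 10 (0.87) or without WT ST-HSCs (adjusted p = 0.0608) or the MPP population (adjusted p = 0.0866). Suz12, its partner in that complex, had 202, 178 and 228 counts in WT and 296, 105 and 194 in ING4-/- (-1.76, adjusted p = 0.0288), and Phc3, of the complex that compacts chromatin, had 536, 629 and 616 against 626, 62 and 147 (-2.81, adjusted p = 0.0223). Neither was called after receptor subtraction (adjusted p 0.166 and 0.112) or with upper-quartile normalization (0.115 and 0.0508), and Suz12 was not with population as a replicate block (0.136). Suz12 also lost its call without any 1 library other than ING4-/- LT-HSCs (adjusted p 0.0522 to 0.0968), and Phc3 without WT ST-HSCs, WT MPPs or ING4-/- MPPs (0.0559 to 0.0603). Eed, Suz12 and Phc3 were still called after homeobox subtraction (log2 fold changes 1.25, -1.77 and -2.77, adjusted p 0.0204, 0.042 and 0.0329 by edgeR). Of 10 genes of the ING4-HBO1 complex tested, Ing4 was the 1 called, lower.

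Noncoding RNAs of the clusters were scarce. Of 13 found, 6 could be tested, 0 were called higher and 2 lower, both at 0 in all ING4-/- libraries, against 7.98% and 56.7% of all genes tested. Hoxaas3, opposite Hoxa7 and Hoxa3, had 0, 183 and 91 counts in ING4-/- and 12, 15 and 14 in WT. Hoxb5os had 0, 0 and 132 in ING4-/-, and Hoxb3os 93, 0 and 56, so neither followed Hoxb5 (558, 506 and 81) across the populations. Hoxb3os lies opposite parts of Hoxb2 and Hoxb3, and had the order of Hoxb2 (181, 44 and 104) but not of Hoxb3 (0, 0 and 5). The clusters also hold hairpins of the miR-10 and miR-196 families, which are known to target Hox transcripts. Their mature forms are shown, in RefSeq's sequence with the seed (bases 2 to 8) in capitals, because each family shares 1 seed across clusters.
miR-10a-5p: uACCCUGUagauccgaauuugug
miR-10b-5p: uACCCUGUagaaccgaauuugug
miR-196a-5p: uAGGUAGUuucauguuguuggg
miR-196b-5p: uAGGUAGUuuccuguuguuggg

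The hairpin of miR-10a lies beside Hoxb4 and that of miR-10b in the span of Hoxd4. The hairpin of miR-196b overlaps 1.5% of the exonic bases of Hoxa9, and miR-196a comes from hairpins in Hoxb and Hoxc. In every ING4-/- library all 5 hairpins were at 0, although Hoxa9 had 1107, 2203 and 2251 counts there. In WT 2 of them had counts, 0, 0 and 5 for Mir10b and 0, 9 and 14 for Mir196a-2. Counts on hairpin genes do not measure mature miRNAs.

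Marker genes of other cell types also differed between the genotypes, and of the 6 lists given here 0 genes were above background in all 3 WT libraries. Their calls stand against 7.98% of all genes called higher and 56.7% called lower. Summed CPM of 6 erythroid genes was 18.8 to 31.5 in WT and 84.1 to 170 in ING4-/-, with 3 called higher and 1 lower and Alas2 at 0 in ING4-/-. For 7 granulocyte genes it was 30.8 to 183 and 73.7 to 318. For 8 stromal genes it was 151 to 195 in WT and 20.5 to 48.0 in ING4-/-, with 6 called lower and Lepr and Prrx1 at 0 in ING4-/-. The 4 B cell genes summed to 42.8 to 66.3 in WT and were at 0 in ING4-/-. The 5 T and NK cell genes summed to 48.2 to 119 and 26.9 to 267, with 4 called lower and 3 at 0 in ING4-/-. Nkg7, not called, carried that ING4-/- sum with 842, 8442 and 7728 counts, and the others had at most 2 counts there. The 4 endothelial genes, some of which stem cells share, summed to 166 to 173 and 102 to 303. The part of these cells in the Hox values was not tested. Of 10 stem and progenitor genes, 8 were above background in all 3 ING4-/- libraries and 4 in all 3 WT libraries, and 2 were called higher.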

How the data were processed

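RNA-seq counts of 6 libraries were used. The authors deposited raw counts per gene for each library, without normalization. Per the labels the build is mm10. The aligner, the counting program and the strand setting are not given in the sources used here. Symbols, biotypes and positions came from GENCODE M21 on GRCm38, where 49056 identifiers were found and 259 were not, and all 39 Hox genes had the same start and end. The library was the replicate, and within a genotype the chi-square per degree of freedom between 2 libraries was never under 14.1, so none was a duplicate.

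From the counts, levels were computed as TMM-normalized CPM per kb of exon. ING4-/- was compared with WT in edgeR 4.0.16 (R 4.3.3; TMM, filterByExpr, quasi-likelihood F test, Benjamini-Hochberg), with genotype as the only term, and populations with genotype as a term. Log2 ratios within a population used a prior count of 2. Same-population libraries deviated together from their genotype means (r = 0.143, 0.11 and 0.121 over 9673 genes), so a fit with population as a replicate block was an alternative, next to DESeq2 1.42.0. A count of 0 allows 3 counts, in WT a CPM of 0.320 to 0.383 when scaled to total counts without TMM factors. Reads were counted without molecular identifiers, and both floors and intervals hold for counting error alone. Promoter and miRNA sequences are RefSeq's (GRCm38.p6).

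Counts in every library are given for members above background in all libraries of a genotype, for called members with over 3 counts in an ING4-/- library and for the member of highest mean WT level among those not above background in each cluster. Of the cofactor, regulator and noncoding lists, called genes above background are named, with Ing4, Meis1 and Kmt2a. Of the sort and cell type markers only some are named. Hoxa5, Hoxa6, Hoxb4, Hoxb8, Hoxc6 and the noncoding genes were named after their values were seen, as was the homeobox subtraction. Members and lists were chosen with earlier results of these data known. The values of 1 member and 1 cofactor are not reported here, but both are in the counts and sums. Of the symbols written, Brpf2 and Mira were not found.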

Additional observations from a re-analysis of the deposited data

Results flagged for a closer look

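For 3 Hox genes the ING4-/- library lay above WT in LT-HSCs and not above it in the other populations. With 1 library per genotype and population, these differences were not tested. In the order LT-HSC, ST-HSC, MPP, the log2 ratio of Hoxc6 was 3.05, -2.45 and -2.83, and rests on 76 counts in ING4-/- LT-HSCs. For Hoxb8 it was 3.71, 0.0 and -1.60, from 36 counts in ING4-/- LT-HSCs. For Hoxa6 it was 1.88, -2.53 and -0.20, where no library had more than 11 counts.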

How the results depend on the processing

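Against 1 Hox gene called higher, Hoxa10, 0 were called with DESeq2 size factors, with at least 10 counts in every library, with DESeq2 and without the LT-HSC, the ST-HSC or the MPP population, and 2 (Hoxb2 and Hoxb5) after receptor subtraction. Without 1 library the count was 0 to 2, 0 without any 1 WT library or ING4-/- LT-HSCs. Against 9 of 18 called lower, 19 of 38 were with no filter and 19 of 36 with DESeq2. With ING4-/- thinned to WT depth it was 3 of 10 (Hoxb9, Hoxc8 and Hoxc13), the rest of the 9 having too few counts to be tested. Of all genes, 52.7%, 54.9% and 53.9% were called lower in these settings. After receptor subtraction 1 was called lower (Hoxa9), and 0 were after homeobox subtraction or with at least 10 counts in every library. Of all genes 38.7%, 49.9% and 9.68% were. In these last 3 only 5, 6 and 5 Hox genes were left to test, none of them among the 9. Without 1 library it was 9 to 14 of 18 to 23 tested, the most without WT ST-HSCs, where 56.0% to 61.7% of all genes were called lower. With population as a replicate block, 1 was called higher and 8 lower, Hoxb3 alone being lost.

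Signs turned for genes that were not called. Hoxa7 was -0.06 with the count minimum of 10, -0.04 after receptor subtraction, -0.02 to 0.86 without 1 library (lowest without ING4-/- MPPs) and -0.10 without the MPP population. Hoxb2 was -0.07 with DESeq2 size factors, -0.22 with the count minimum, -0.08 with thinning, -0.32 to 0.67 without 1 library (lowest without ING4-/- LT-HSCs), -0.25 without the LT-HSC population and -0.05 with DESeq2. Hoxa9 was 0.10 with upper-quartile normalization and Hoxc6 -3.21 with the replicate block. The cause was not tested. The median log2 fold change of all genes was -6.85, -7.17 with DESeq2 size factors and -6.35 with upper-quartile normalization. The share of all genes called higher was 7.98%, 4.33% and 14.7%.

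Of Hoxa and Hoxb genes above background in all WT libraries there was 1, against 3 with the 95th percentile or the homeobox genes and 0 with the highest receptor gene, where 3 of the 6 in ING4-/- were left. Their share of the WT Hox level after receptor subtraction was 99.8%, 100% and 100% in LT-HSCs, ST-HSCs and MPPs, and after homeobox subtraction 93.8%, 98.6% and 96.2%. Hoxc and Hoxd had 0 genes above background in all libraries of a genotype under every threshold tried. WT depth, at most 9363442 counts, and WT background limit what can be said of every Hox gene, Hoxa7, Hoxa9 and Hoxa10 included.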
